A study of Homo sapiens with 2 samples.

Results

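Homologous recombination and the Fanconi anaemia pathway repair broken and crosslinked DNA. Their genes were compared between cells labelled HCT116, a human colorectal carcinoma line of epithelial origin, that had been given a miR-204-5p mimic, a synthetic RNA that copies this microRNA, and cells of the same label transfected with a negative control RNA, both by lipofection and both 48 h before RNA extraction. The labels give no further treatment, clone or genotype. Each condition had 1 single-colour Agilent array and no repeat experiment, so every value below describes 2 arrays. There is no error between replicates, and no difference was tested. The members were the genes of a fixed list of 36 whose symbol stands in the authors' deposited table of detected probes. Of these, 32 had a value there, through 39 probes, out of 14900 genes with a symbol in that table.

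Homologous recombination copies an intact sister sequence into a DNA break. The MRN complex (MRE11A, RAD50 and NBN) binds the break, RBBP8 helps to trim its ends, BRCA1 with its partner BARD1 and the bridging protein PALB2 bring in BRCA2, and BRCA2 helps to build the protein filament that pairs the single strand with the sister. The Fanconi anaemia pathway acts when a replication fork meets a crosslink between strands. A core complex with the ubiquitin ligase FANCL and its conjugating enzyme UBE2T marks FANCD2 and FANCI, and the marked ID complex brings nucleases to the crosslink. Much of this machinery is expressed mainly in S and G2 phase, and many of its promoters are described as bound by E2F factors.

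The mature miR-204-5p that the mimic is named for is shown with its seed (bases 2 to 8, in capitals), the part that pairs with target transcripts. It is credited to RefSeq on GRCh38.p14, where the mature sequence lies at chr9:70810031-70810052 on the minus strand.
hsa-miR-204-5p: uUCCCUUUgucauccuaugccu
No 3' end of a transcript was read here for sites that match this seed.

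Promoters are shown for FANCD2 and FANCF, the members furthest above the control, for BRCA1, and for BARD1, the member furthest below it. Each window runs from 250 bases before the start site to 50 after it, 5′ to 3′, from RefSeq on GRCh38.p14. Capitals mark the E2F-type letters searched on both strands, namely TTCGCGC, the variant TTGGCGC and lastly the variant TTCCCGC. A gene was counted once, however many of these matched or overlapped. The FANCD2 window is chr3:10026187-10026486 on the plus strand, the FANCF window chr11:22625774-22626073 on the minus strand, the BRCA1 window chr17:43125315-43125614 on the minus strand and the BARD1 window chr2:214809634-214809933 on the minus strand.
FANCD2: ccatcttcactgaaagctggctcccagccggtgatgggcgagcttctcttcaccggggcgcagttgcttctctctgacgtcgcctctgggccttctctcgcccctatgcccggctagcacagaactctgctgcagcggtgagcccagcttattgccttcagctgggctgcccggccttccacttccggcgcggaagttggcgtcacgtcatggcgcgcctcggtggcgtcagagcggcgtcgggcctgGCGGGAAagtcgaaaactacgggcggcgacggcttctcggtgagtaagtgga
FANCF: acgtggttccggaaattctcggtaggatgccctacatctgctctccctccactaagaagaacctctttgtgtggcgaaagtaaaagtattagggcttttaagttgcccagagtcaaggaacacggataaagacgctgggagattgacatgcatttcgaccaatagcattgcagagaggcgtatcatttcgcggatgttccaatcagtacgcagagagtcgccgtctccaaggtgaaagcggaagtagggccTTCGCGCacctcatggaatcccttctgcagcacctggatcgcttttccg
BRCA1: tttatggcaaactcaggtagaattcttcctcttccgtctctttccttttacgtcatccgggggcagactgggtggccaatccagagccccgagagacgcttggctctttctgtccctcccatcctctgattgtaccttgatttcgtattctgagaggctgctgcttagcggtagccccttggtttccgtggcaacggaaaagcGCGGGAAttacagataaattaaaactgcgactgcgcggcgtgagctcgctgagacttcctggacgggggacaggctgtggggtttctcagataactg
BARD1: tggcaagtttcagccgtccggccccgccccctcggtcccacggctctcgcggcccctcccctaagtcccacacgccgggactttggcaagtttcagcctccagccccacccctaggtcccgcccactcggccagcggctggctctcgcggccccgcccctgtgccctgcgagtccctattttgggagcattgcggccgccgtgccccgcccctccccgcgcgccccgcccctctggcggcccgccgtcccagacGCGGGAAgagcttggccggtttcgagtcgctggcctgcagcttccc
The match begins 2 bases before the start site in FANCD2 and 47 bases before it in BRCA1, and it lies within the first transcribed bases in FANCF and BARD1. RefSeq lists a further BRCA1 window, at chr17:43170278-43170577, without a match. Of the 36 listed genes 33 had a window in the table, and 18 of these (54.5%) held an E2F-type match in at least 1 window. The share was 20.8% over the 9433 genes of the authors' table that could be matched to a window and 13.1% over all 27305 genes with one. The match was present in 10 of the 12 members that the mimic array placed 1.5-fold or more above the control, in 2 of the 6 that it placed as far below and in 5 of 11 in between. Among all matched genes the same 3 classes hardly differed, with 21.4%, 19.7% and 21.0% holding a match. The NF-Y-type letters CCAAT were in 16 of the 33 members against 43.1% of matched genes, and the CHR-type letters TTTGAA or TTCGAA in 4 of 33 against 15.7%. A match is a description of letters and not a shown binding site.

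Values are given as scaled intensities, on which each array was brought to a common 75th percentile, and differences as log2 intensity, mimic minus control. The 75th percentile before scaling was 1364 (mimic) and 894 (control), and the median of the negative-control spots was 5.59 and 3.60. Over all genes the median difference was -0.05 and the middle 50% lay between -0.58 and 0.54. As a guide to technical spread, the difference between arrays had a median SD of 0.077 over the spots of 1 probe (999 probes with at least 8 spots), and 2 probes of the same gene differed by a median of 0.48 over 2510 genes. Differences under about that size cannot be told from the choice of probe, and since it is a median, many larger ones cannot either. Among the members with several probes the gap ran from 0.094 at FANCL to 1.83 at FANCA and 2.58 at ATM. Fewer cells of a type and less RNA per cell cannot be told apart in such bulk RNA.

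The arrays differed in more than repair genes. Of 10 measured epithelial markers 8 exceeded the control by 1.5-fold or more on the mimic array and 0 fell short of it by as much, with summed scaled intensities of 260636 against 44964. The shares over all genes were 23.5% higher and 24.7% lower. CDH1, the adhesion protein E-cadherin that defines epithelial cells, read 11324 with the mimic but 36.6 on the array labelled control, where it was 8.24 times the negative-control median. Of 7 measured mesenchymal markers 7 were lower, with summed intensities of 10550 against 212029, and VIM (vimentin) was 1279 against 163211. The 4 blood cell markers summed to 682 and 2015. The array labelled control therefore goes against the epithelial label at CDH1, the only marker of the 10 under 10 times the negative-control median there. The rest ran on that array from 22.1 times this median at GRHL2 to 4980 times at KRT18, with CLDN4 at 3061 and KRT19 at 1375 times. Low CDH1 thus does not stand for the whole epithelial list. The part of these marker differences between the arrays in the values below was not tested. With 1 array per group it cannot be told apart from that of the mimic.

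A feature of the deposited values touches the lower genes. At 1366 of the 20291 probes the raw mimic intensity equalled the control intensity multiplied by the fold that the authors' deposited table lists, to a relative tolerance of 1e-06. These were all among the 1367 probes marked Down and are called recomputed here, since their mimic value may not be an independent reading. They stood behind 1165 of the 3685 genes at least 1.5-fold lower and behind 676 of the 677 genes at least 4-fold lower. They also stood behind 5 of the 7 mesenchymal markers (VIM, ZEB1, SNAI2, AXL and COL1A2) and behind the blood cell marker CD68, so the mimic sums of both lists carry the same limit. The other mesenchymal markers were lower too, CDH2 at 66.8 against 180 and SPARC at 784 against 1595. Among the members, 3 of 39 probes were recomputed, which were the only probe of BARD1, the only probe of FANCM and 1 of the 2 ATM probes.

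The mimic array was brighter by 1.5-fold or more at 12 of the 32 members (37.5%), against 23.5% of all genes, and dimmer by as much at 6 (18.8%), against 24.7%. The remaining 14 lay within 1.5-fold. The members' median difference was 0.19, which is 0.24 above that of all genes, and 21 of 32 lay above the all-gene median. On each side of the 1.5-fold line the closest members were EME1 (0.59), BLM (0.62) and FANCG (0.62) past it, and FANCL (-0.56), FANCE (-0.47) and CHEK2 (0.30) within it. At 2-fold 4 of the 32 members were higher, against 14% of all genes, and 3 of the 32 lower, against 14.3%. The larger share of higher members at 1.5-fold was thus not seen at 2-fold.

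**Figure D1:**
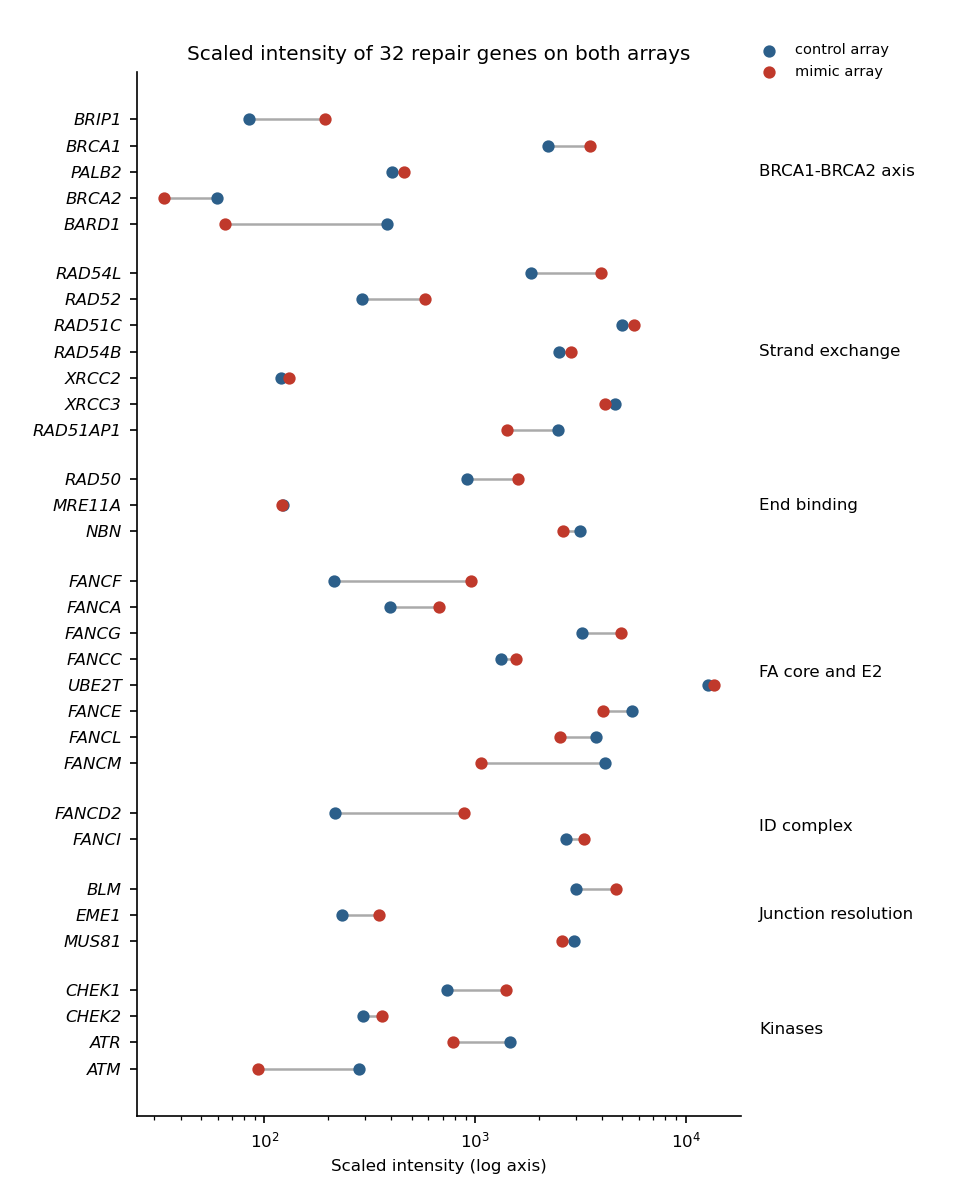
Scaled intensity (log axis) of the 32 members on the control array (blue) and the mimic array (red), 1 point per gene and array, grouped by role. Levels of different genes rest on different probes and are not comparable with each other. The widest gaps are at BARD1, FANCF, FANCD2 and FANCM.

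In the BRCA1-BRCA2 axis the genes diverged. BRCA1, the ubiquitin ligase and scaffold of end resection, had an intensity of 3494 with the mimic and 2211 in the control, 1.58-fold higher (0.66). BARD1, the partner that BRCA1 needs for its ligase activity, was 65.3 against 380, 5.83-fold lower (-2.54), from the recomputed probe. The authors' deposited table gives BARD1 as 3.82-fold lower, before the further scaling used here. The partners thus lay on opposite sides, in values of which only the BRCA1 one is free of the recomputation.

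PALB2, which links BRCA1 to BRCA2, was 461 against 404 and stayed within 1.5-fold (0.19). BRCA2, the mediator of filament assembly, was 33.4 against 59.4, 1.78-fold lower (-0.83). Its mimic value was 7.38 times the negative-control median, the only member value under 10 times that median on either array, so the size of its difference depends on the floor. BRIP1, the helicase also named FANCJ that binds BRCA1, was 194 against 84.9, 2.28-fold higher (1.19).

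RBBP8, the resection factor also known as CtIP, had no probe in the authors' table under any symbol. A probe in the scanner files alone carries its accession and read 4036 against 6201, 1.54-fold lower (-0.62). That value lies outside the counts above.

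Among the strand-exchange genes, RAD54L and RAD52 were higher and RAD51AP1 was lower. RAD54L, the motor protein that helps the filament to invade the sister strand, was 3954 against 1847, 2.14-fold higher (1.10). RAD52, an annealing protein that backs up BRCA2 in human cells, was 581 against 291, a log2 difference of 1.00. RAD51AP1, which stimulates the joining of both DNA molecules, went the opposite way with 1419 against 2485, 1.75-fold lower (-0.81). None of these rested on a recomputed probe.

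The RAD51C, XRCC2 and XRCC3 proteins, which stabilise the filament, had genes that stayed within 1.5-fold. RAD51C was 5659 against 4961, XRCC2 131 against 120 and XRCC3 4122 against 4583, with differences of 0.19, 0.13 and -0.15. RAD54B, a relative of RAD54L, was 2837 against 2500 (0.18). A further RAD54B probe in the scanner files, outside the authors' table, read 48.0 against 74.7 (-0.64).

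RAD51B and RAD51D, of the same family, stood in the authors' table under older symbols, RAD51L1 and RAD51L3, with the same Entrez identifier, and so outside the counts. RAD51B was 100 against 109 (-0.12). The RAD51D probes disagreed in direction, at 276 against 158 (0.81) and 198 against 231 (-0.22). Of 7 strand-exchange genes under their listed symbols, 2 (28.6%) were higher and 1 (14.3%) lower, against 23.5% and 24.7% of all genes.

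Among the break-binding genes, RAD50, the ATPase arm of the MRN complex, was 1602 against 915, 1.75-fold higher (0.81). NBN, the subunit that recruits ATM, was 2601 against 3160 (-0.28). MRE11A, the nuclease of the complex, was 121.8 against 122.1 (-0.004), but its probe lies on chromosome 3 in the file's coordinates, where RefSeq lists the pseudogene MRE11P1, while the gene is on chromosome 11. Whether that probe reads MRE11A was not checked.

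**Figure D2:**
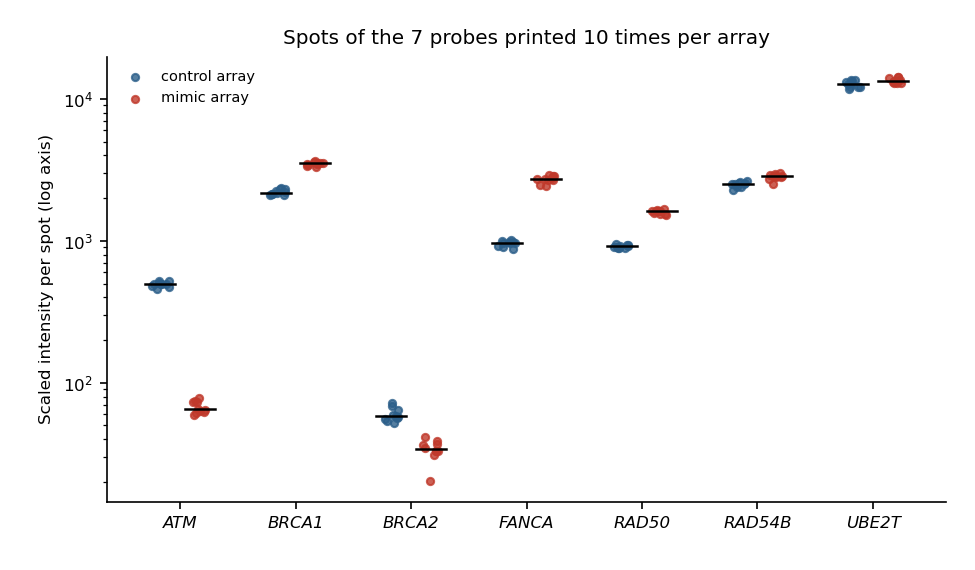
Scaled intensity per spot (log axis) for the 7 member probes that were printed 10 times on each array, with control spots in blue, mimic spots in red and black bars at the median. The spots of BRCA1, RAD50 and FANCA lie higher on the mimic array and those of BRCA2 and ATM lower, with no overlap, while those of RAD54B and UBE2T overlap. The ATM probe is a recomputed one.

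Repeated spots gave the reading error of 7 member probes, each printed 10 times per array. BRCA1 spots ran from 3300 to 3679 (median 3513) with the mimic and from 2113 to 2356 (median 2190) in the control, a difference of 0.66 ± 0.053 (SD over 10 spots). RAD50 spots ran from 1531 to 1666 (median 1624) against 884 to 954 (median 915), a difference of 0.81 ± 0.046. BRCA2 spots ran from 20.2 to 41.7 (median 34.1) against 51.8 to 71.4 (median 57.9), a difference of -0.83 ± 0.25, the widest of the 7. For these 3 genes the spot ranges of the arrays did not overlap. The recomputed ATM probe ran from 59.3 to 77.6 (median 64.9) against 459 to 522 (median 495), a difference of -2.88 ± 0.13. A factor common to all its mimic spots would leave their spread unchanged, so this spread cannot tell whether they are independent readings.

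UBE2T spots ran from 12935 to 14243 (median 13436) against 11768 to 13671 (median 12834), and RAD54B spots from 2509 to 3026 (median 2861) against 2299 to 2654 (median 2527). Both sets of ranges overlapped, with differences of 0.08 ± 0.052 and 0.18 ± 0.057. These SDs cover the reading of 1 labelled sample and not the spread between cultures.

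The Fanconi core complex held both the largest positive difference and a large negative one. FANCF, the adaptor that joins the subcomplexes of the core, read 1522 against 243 at one probe (2.65) and 598 against 189 at the other (1.67). Their mean was 954 against 214, 4.46-fold higher (2.16), and 3.42% of all genes were higher still. The probes lie at chr11:22644733-22644792 and chr11:22646233-22646292 as the file places them, on a build that the sources used here do not name. FANCF was thus higher at both of its probes, and neither was recomputed.

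FANCA, a scaffold subunit of the core, was 676 against 394 as a mean of 3 probes, 1.71-fold higher (0.78). The probes disagreed, with differences of 1.5, 1.16 and -0.32. The first of them, printed 10 times, ran from 2428 to 2908 (median 2726) against 874 to 1007 (median 968), a difference of 1.5 ± 0.080 over the spots. FANCA was the only member whose probes in the table lay on both sides of 0.

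FANCG, which binds FANCA within the core, was 4939 against 3203, 1.54-fold higher (0.62). FANCC (1558 against 1327, 0.23) stayed within 1.5-fold, as did FANCE (4025 against 5567, -0.47), the subunit that contacts FANCD2. FANCL, the catalytic ligase, was 2535 against 3727 (-0.56), with both probes on the lower side. UBE2T, the conjugating enzyme that works with FANCL, was 13519 against 12785 (0.08).

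FANCM, the DNA translocase that anchors the core to stalled forks, was 1068 against 4149, 3.89-fold lower (-1.96), from its recomputed probe. The authors' deposited table gives 2.55-fold lower. Over the 8 genes of the core and its conjugating enzyme, 3 (37.5%) were higher, 1 (12.5%, the recomputed FANCM) was lower and the median was 0.16. The shares over all genes were 23.5% and 24.7%.

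FANCD2 and FANCI form the complex that the core ubiquitinates. FANCD2 was 883 against 216, 4.08-fold higher (2.03), and 3.98% of all genes were higher still. FANCI, its partner, was 3281 against 2696 (0.28). The FANCD2 value rests on 1 probe with 1 spot, at chr3:10143006-10143065 in the file's coordinates. A pair of further FANCD2 probes in the scanner files, dim and outside the authors' table, read 66.1 against 49.2 (0.43) and 66.9 against 48.7 (0.46). All 3 probes were on the higher side but differed in size, and RefSeq lists the pseudogenes FANCD2P1 and FANCD2P2 on the same chromosome. Which copy each probe reads was not checked.

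Genes that resolve joined DNA molecules differed in direction. BLM, the helicase that dissolves crossed strands, was 4642 against 3016, 1.54-fold higher (0.62). EME1, the partner of the nuclease MUS81, was 350 against 232, 1.51-fold higher (0.59), and MUS81 was 2589 against 2943 (-0.18). SLX4, the platform for several nucleases, was in the authors' table under the older symbol BTBD12 and read 963 against 1681, 1.75-fold lower (-0.80), outside the counts.

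Among the checkpoint kinases ATR was lower and CHEK1 higher, while the lower mean of ATM depended on a recomputed probe. ATM, the kinase that answers DNA breaks, read 67.1 against 494 at its recomputed probe (-2.88) and 131 against 161 at the other (-0.30). The mean of -1.59, 3.01-fold lower, thus rests mostly on the recomputed probe, and the other probe alone was within 1.5-fold. ATR, the kinase that answers stalled forks, was lower at both probes, with 2624 against 5466 (-1.06) and 236 against 395 (-0.74). Its mean was 788 against 1470, 1.87-fold lower (-0.90), with no recomputed probe.

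CHEK1, the effector kinase that ATR activates, was 1408 against 737, 1.91-fold higher (0.93). CHEK2, the effector of ATM, was 362 against 294 (0.30), with differences of 0.39 and 0.21 at its probes. The brighter of them lies on chromosome Y in the file's coordinates, where RefSeq lists the pseudogene CHEK2P1, while the gene is on chromosome 22. The probes of CHEK2 and MRE11A were the only 2 of the 38 member probes with coordinates that lay on another chromosome than their gene.

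**Figure D3:**
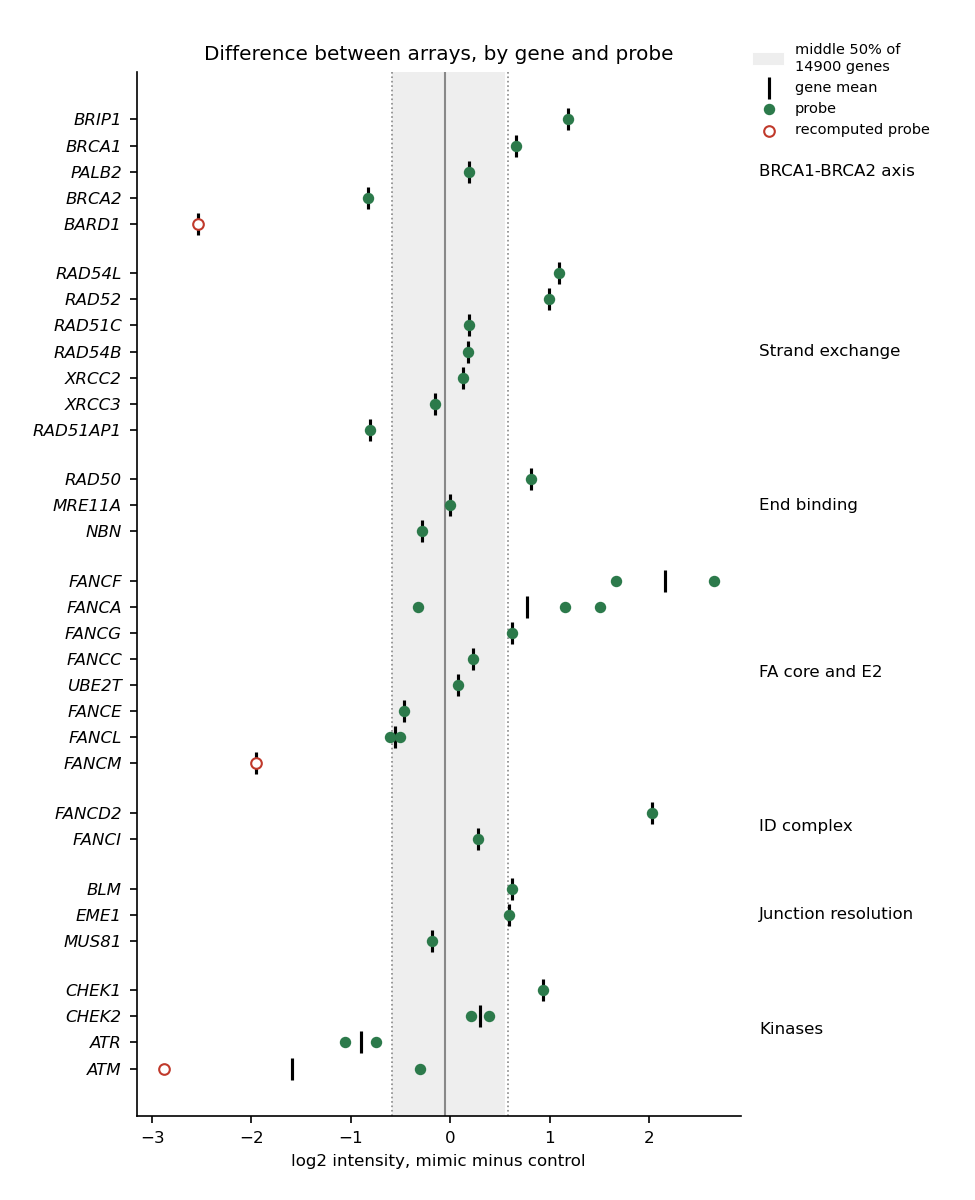
Log2 intensity, mimic minus control, of each member's probes (filled green, or open red where recomputed) and their mean (black bar), grouped by role. The shaded band is the middle 50% of all 14900 genes, the solid line their median and the dotted lines 1.5-fold. The 3 open points are those of BARD1, FANCM and ATM, at -2.54, -1.96 and -2.88.

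Under the 1.5-fold rule, genes on the higher side came from every role: BRCA1 and BRIP1, RAD54L and RAD52, RAD50, FANCA, FANCF and FANCG, FANCD2, BLM and EME1, and CHEK1. None of these 12 had a recomputed probe, but recomputed probes occurred only among those marked Down. Of the 32 members 26 had 1 probe in the authors' table, so their probes could not disagree. Among the 12 only FANCF and FANCA had more, with FANCF higher at both probes and the FANCA probes on both sides. Of the 6 on the lower side, 3 (BARD1, FANCM and ATM) had a recomputed probe and 3 (ATR, BRCA2 and RAD51AP1) did not. Without the recomputed probes BARD1 and FANCM have no value, ATM is within 1.5-fold, and the lower count is 3 of 30 members. The share of all genes was not counted without those probes.

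In the authors' deposited table the same probes look more one-sided. It marks 36 of the 39 member probes Up, but so it does 18924 of all 20291 probes, so this is not particular to the members. Its own fold is below 1 at 3 of those 36, which are both of the ATR probes and that of RAD51AP1. In its normalized log2 values the median of all genes is 0.58 above the control rather than -0.05. On those values 21 members are at least 1.5-fold higher and 3 lower, but the all-gene median itself lies almost on the 1.5-fold line (0.585). Once the all-gene median is taken off, 11 are higher and 5 lower. The shares of all genes were not counted on these values, so neither pair of counts can be read as particular to the members.

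Other genes of the same pathways, from a list written beside that of the members, had a like median. Of 57 measured, 14 (24.6%) lay above the control by 1.5-fold or more and 9 (15.8%) below it, against the 23.5% and 24.7% of all genes, with a median of 0.23. EME2, an alternative partner of MUS81, was 333 against 76.1, 4.37-fold higher. ZSWIM7, a partner of the SWSAP1 protein in filament assembly, was 3051 against 747, 4.08-fold higher, and C10orf78 (SFR1), a cofactor of strand exchange, was 7770 against 2028, 3.83-fold higher. GEN1, a nuclease that cuts crossed strands, was 136 against 502, 3.68-fold lower, from a recomputed probe.

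End-joining genes, which seal breaks without a template, had 5 of 13 higher (38.5%), 2 lower (15.4%) and a median of 0.43. POLL, a gap-filling polymerase, was 670 against 278, 2.41-fold higher, and DCLRE1C, the nuclease Artemis, was 506 against 1263, 2.50-fold lower. Of 17 genes of mismatch repair and its replication partners 3 were higher (17.6%) and 2 lower (11.8%), with a median of 0.11. MSH3, a mismatch recognition protein, was 76.4 against 830, 10.9-fold lower, from a recomputed probe. LIG1, the ligase that joins replicated fragments, was 3611 against 916, 3.94-fold higher.

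Because much of this machinery, though not every member, is expressed mainly in cycling cells, lists of cell cycle genes are set beside the members. Of 19 S phase genes 10 (52.6%) passed 1.5-fold upwards and 1 (5.3%) downwards, around a median of 0.62. Over all genes 23.5% and 24.7% did so. CDT1 and RRM2 were 6.19-fold and 5.61-fold higher. Summed scaled intensities of the list were 216503 with the mimic and 138048 in the control. Of 16 mitosis genes 2 (12.5%) were higher and 9 (56.25%) lower, with a median of -0.75, and 4 of the 9 had a recomputed probe. Summed intensities were 64912 against 111543, and E2F1 itself was 561 against 806 (-0.52). The members' median of 0.19 lay between those of the S phase and mitosis lists, as did the median of all genes (-0.05), so this place is not particular to the members. The part of cell cycle differences in the members' values was not tested.

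**Figure D4:**
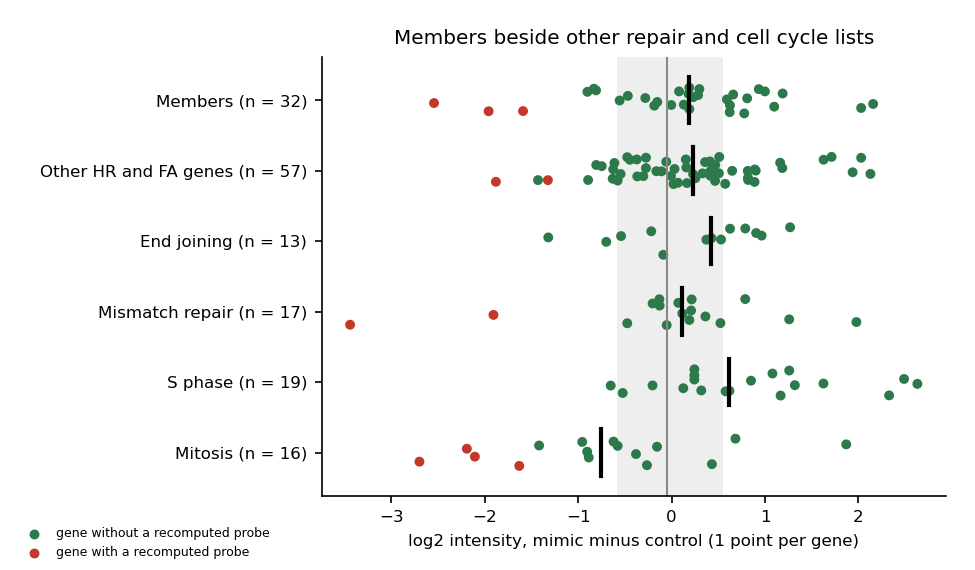
Log2 intensity, mimic minus control, of each gene (1 point) in the members and 5 other lists, with black bars at the list medians, red points for genes with a recomputed probe, the middle 50% of all genes shaded and their median as a grey line. The member median (0.19) is close to that of other homologous recombination and Fanconi genes (0.23) and lies between S phase genes (0.62) and mitosis genes (-0.75). The median of all genes (-0.05) lies between the S phase and mitosis lists as well.

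The differences of single members varied little with the normalization. Relative to the median of all genes, FANCF lay between 2.02 and 2.72 and RAD54L between 1.09 and 1.21 over the settings that gave a value. FANCD2 lay between 1.02 and 2.10, with the lowest value when its dim probes outside the authors' table were averaged in. ATM ranged from -2.81 with its brightest probe to -0.31 without its recomputed one. EME1, at 0.54 to 0.66, was past 1.5-fold in 5 of 11 settings, the reported one included, and BRCA2, at -0.84 to -0.44, in 8 of 11. BRCA1, RAD50, BLM, FANCG, CHEK1 and ATR were past 1.5-fold, in the same direction, under all 12 settings.

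**Figure D5:**
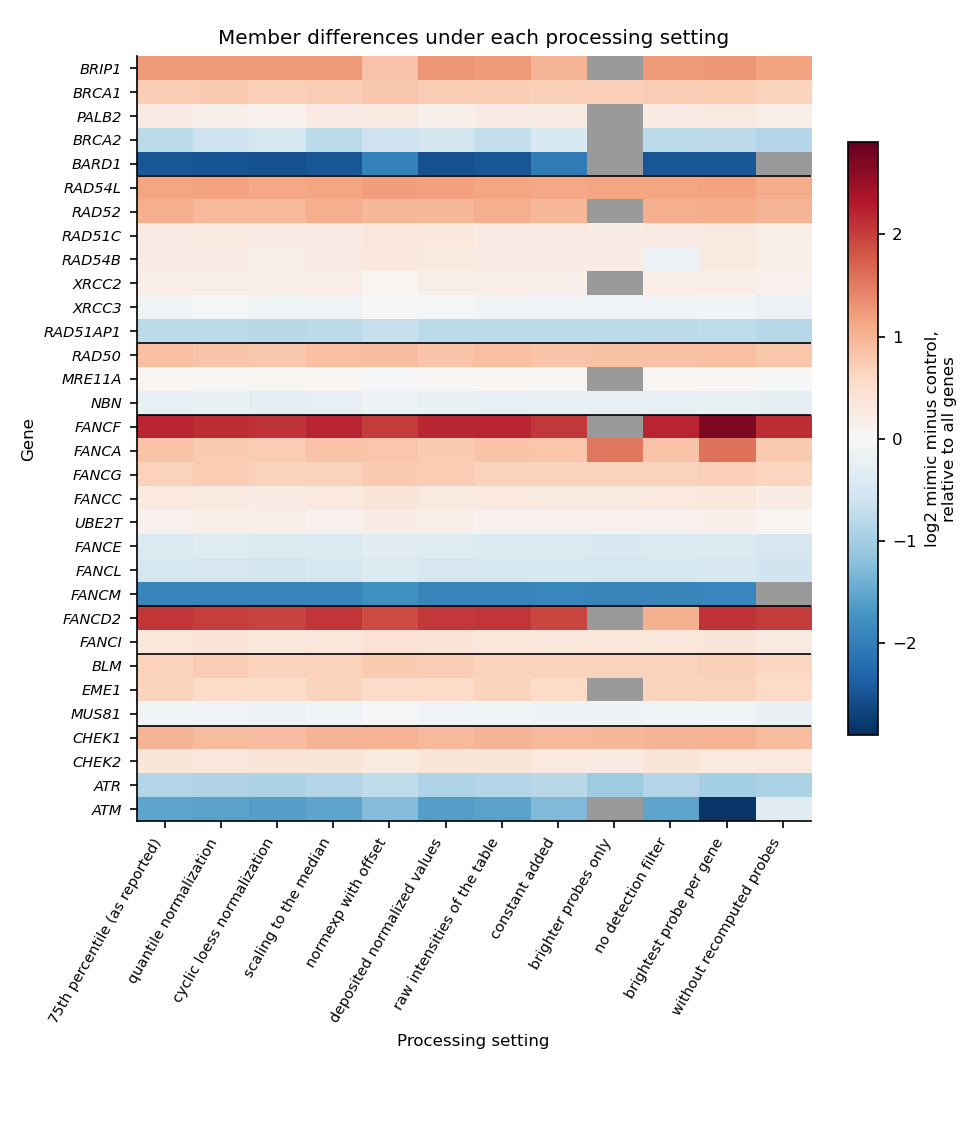
Log2 difference of each member (rows, grouped by role) relative to the median of all genes under the reported scaling (first column) and 11 alternatives, from blue (lower on the mimic array) to red (higher), with grey where no probe was left. FANCF and FANCD2 stay red and ATR blue in every column that holds a value, while ATM turns pale without the recomputed probes.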

How the data were processed

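Each group had 1 array, of total RNA labelled with Cy3, per the labels' protocols. The submitters' processing notes name Agilent Feature Extraction 9.1. Intensities on a linear scale were deposited for 44495 spots per array. The authors' deposited table holds, per the file headers, for 20291 probes the raw intensity, its normalized form in log2 and a fold (mimic to control ratio). Its header limits it to probes called detected in 5 of 5 samples, and 3 of those samples are not analysed here. The sources used here do not give the authors' background correction, normalization method or genome build. The deposited value table of the series matches those log2 values within 0.005, with medians of 9.81 (mimic) and 9.21 (control), and so is uncentred with mimic over control as its direction.

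Log2 intensities of a probe's spots were averaged, 2 missing mimic spots left out, and arrays were brought to a common 75th percentile over 34127 non-control probes. A gene's value is the mean over its table probes, by the file's symbol, which 1995 probes lack. The steps recovered simulated differences of 200 genes. Those were at least 2-fold and alike at all probes of a gene. The run therefore does not bear on calls near 1.5-fold or on probes that disagree. There was no test. Python 3.11.15 and limma 3.58.1 in R 4.3.3 were used. Members, lists, roles and the 1.5-fold threshold were chosen with earlier results of these data known. Every member was named, and of other lists at most the 4 largest differences. E2F1, as a motif's factor, and in the marker lists CDH1 and VIM, were named by role. Further marker genes were named to show their level on the control array or whether their probe was recomputed. Some genes of these lists are not reported here. The planned protein comparison was not run.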

Additional observations from a re-analysis of the deposited data

Results flagged for a closer look

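A pair of RAD51D probes outside the compared symbols was at least 1.5-fold brighter on the mimic array than on the control array. The one listed in the authors' table as RAD51L3 had a log2 difference of 0.81 (276 against 158), while the other RAD51L3 probe of that table had -0.22. The one in the scanner files alone had 1.24 (169 against 71.4). The level of RAD51D therefore differed by probe, and the cause was not tested.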

How the results depend on the processing

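As reported, 12 members were at least 1.5-fold higher, 6 lower, and their median difference was 0.19. Relative to all genes the members' median was 0.24 and stayed between 0.20 and 0.28, but the medians of the small role groups were less stable. At 2-fold 4 members were higher and 3 lower, neither a larger share than over all genes (14% and 14.3%). The deposited normalized values gave 21 higher, 3 lower and a median of 0.84, where the median of all genes is 0.58. With that shift common to all genes 7 members turned from negative to positive, of which only BRCA2 (-0.83 to 0.042) had been past 1.5-fold. With only the brighter probes, which leave 21 members, 7 were higher and 3 lower, and without recomputed probes 3 were lower. The share of all genes past 1.5-fold was counted only under the reported scaling, so 1.5-fold counts under the alternatives have none beside them. Group medians are given relative to all genes. That of the BRCA1-BRCA2 axis, 0.24 as reported, turned to -0.16 with no detection filter, which added RBBP8. It was 0.14 under quantile scaling and in the deposited values, 0.13 under cyclic loess, 0.70 with brighter probes and 0.41 without recomputed ones. End binding, 0.049 as reported, turned to -0.039 under normexp and to -0.016 without recomputed probes, and was 0.032 under quantile scaling, 0.026 in the deposited values and 0.30 with brighter probes. The kinases, -0.25 as reported, turned to 0.24 with brighter probes, without ATM, and were -0.013 without recomputed probes. The ID complex went from 1.21 to 0.32 with brighter probes, which leave FANCI alone, and to 0.68 with no detection filter, since the dim FANCD2 probes entered. Junction resolution went from 0.65 to 0.25 with brighter probes and to 0.26 with the older symbols added, a choice made after seeing the data. The core was 0.21 as reported and 0.12 with brighter probes, and mismatch repair 0.17 as reported, 0.092 under cyclic loess and 0.26 with the brightest probe. Every other count, and every other median of the members and groups, kept its sign and stayed within 1.5 times under the alternatives run. No paired analysis was possible because each group has 1 array. For the same reason no replicate could be left out, and only BRCA2 on the mimic array read under 10 times the negative-control median.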
